A study of Mus musculus with 72 samples.

Results

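Heparan sulfate is a long sugar chain carried by proteoglycans of the cell surface and matrix, and enzymes of the Golgi and of the extracellular space set the pattern of sulfate groups along it. The 8 genes described here encode such enzymes: the 3-O-sulfotransferases Hs3st1, Hs3st2, Hs3st4 and Hs3st5, the 6-O-sulfotransferases Hs6st2 and Hs6st3, and the extracellular 6-O-endosulfatases Sulf1 and Sulf2. They were chosen by name with earlier results of these data known. All 8 were held by both the 10X table of 17231 genes and the table of manually sorted cells with 24256 genes. The question put to the data was which of these enzymes take each other's place over single Pet1 neurons of the mouse dorsal raphe (DR) and over 8 sorted groups of such neurons.

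The 10X libraries were made from Pet1 neurons of adult mice, sorted by fluorescence, in 2 runs. In run 1 no Cre was used, so that its cells carried EGFP and not the hM3Dq receptor. The animals of run 1 were Pet1::Flpe+/-; hM3Dq+/+ with a mean age of postnatal day 65.5, and those of run 2 were En1::cre+/-;Pet1::Flpe+/-;RC::FrePe+/- with a mean age of postnatal day 59. The manually sorted cells all came from mice with Pet1::Flpe+/- and RC::FrePe+/-, a reporter that needs both Flpe and Cre for the sorted label, together with 1 of 4 heterozygous Cre drivers. With Sert::cre+/- there were 10 cells of the dorsolateral DR (Sert_Pet1_dlDR), 9 of the dorsomedial DR (Sert_Pet1_dmDR), 8 of the ventromedial DR (Sert_Pet1_vmDR) and 6 of the caudal DR (Sert_Pet1_cDR). With P2ry1::cre+/- there were 10 cells of the caudal DR, with Npy2r::cre+/- 10 of the caudal and 9 of the rostral DR, and with Crh::cre+/- 8 of the rostral DR. A recombinase marks a cell that expressed its driver at any time up to the sort, so a group name records a history and not the present level of the driver. Ages ran from postnatal day 62 to postnatal day 119 and went with the groups: Sert groups were at day 63 or 90, P2ry1 cells at days 62 to 74, Npy2r cells at day 77 or 87 and Crh cells at day 83 or 119.

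The 10X table held 2350 cells with 12320 to 134079 UMIs (unique transcript counts) each, and the 70 manually sorted cells had between 756872 and 7664103 reads on genes. Cells fell into 14 clusters, numbered by 6 marker genes each after the subtypes of the study, and clustered without any heparan sulfate gene. Clusters 13 and 14 were the shallowest, with medians of 28737 and 34715 UMIs per cell against 45568 to 70554 elsewhere. The 7 genes of Pet1 serotonin neurons summed to between 2678 CPM (counts per 1000000 counts of the cluster, here cluster 13) and 10626 CPM (cluster 4), whereas the measured members of the oligodendrocyte list (5 of 6) summed to 23.6 to 68.4 CPM and those of the astrocyte list (4 of 5) to at most 3.42 CPM. The microglia list was at 19.6 CPM in cluster 7 and at most 2.11 CPM elsewhere, and the endothelial list was highest in clusters 6 and 12, at 7.29 and 6.44 CPM. The study had removed cells rich in glial markers or poor in Fev (Pet1) before deposit. The barcodes carry 2 endings, 869 cells with ending 1 and 1481 with ending 2, and 0 barcodes occur with both. Xist was at 254 CPM in ending 1 and at 0 in ending 2, and Ddx3y at 0 and 115 CPM, so that sex, batch and genotype cannot be told apart in a difference between endings. No animal is named for any cell. Each table group was therefore 1 sample, no test between groups was made, and the intervals given are 95% intervals that cover counting error only.

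3-O-sulfation is the rarest step in the making of heparan sulfate, and the members of the family place it on different sugar contexts. Hs3st1 is known for making the antithrombin-binding sequence, Hs3st2 and Hs3st4 for making the other type, to which a herpesvirus glycoprotein binds, and Hs3st5 for making both. Hs6st2 and Hs6st3 add 6-O-sulfate inside the Golgi, and Sulf1 and Sulf2 remove it again outside the cell, which changes the binding of growth factors and of axon guidance proteins. Because the sulfotransferases act on the same chain, their combination in a neuron bears on what its chains can bind.

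On GRCm38 (mm10), the build used by the authors, Hs3st2 (chr7:121391859-121501770) and Hs3st4 (chr7:123982869-124398989) lie on the plus strand of 1 chromosome, Hs3st1 on chr5:39613935-39755475 (minus) and Hs3st5 on chr10:36506814-36834397 (plus). Hs6st2 is X-linked (chrX:51387212-51681856, minus), Hs6st3 lies on chr14:119138341-119869815 (plus), Sulf1 on chr1:12692277-12861192 (plus) and Sulf2 on chr2:166073089-166155663 (minus). In GENCODE M21 the locus of Sulf2 overlaps Ncoa3 on the other strand, and Hs3st4 overlaps Gm27040 on the other strand. Ncoa3 had 2177 UMIs and 5359 manual reads, and Gm27040 had 556 UMIs. No strand setting is given for the manual counts in the sources used here, so reads of Sulf2 from the shared stretch cannot be told apart from those of Ncoa3 there.

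The promoters of Hs3st4 and Hs3st5 are shown because these enzymes led the family in the largest numbers of clusters, 7 and 3 of 14. Each line is the 250 bases before the RefSeq transcript start (GRCm38.p6, 5′ to 3′ on the plus strand, Hs3st4 at chr7:123982578-123982827 and Hs3st5 at chr10:36506557-36506806), in lower case with every CG dinucleotide, the site of CpG methylation, in capitals.
Hs3st4: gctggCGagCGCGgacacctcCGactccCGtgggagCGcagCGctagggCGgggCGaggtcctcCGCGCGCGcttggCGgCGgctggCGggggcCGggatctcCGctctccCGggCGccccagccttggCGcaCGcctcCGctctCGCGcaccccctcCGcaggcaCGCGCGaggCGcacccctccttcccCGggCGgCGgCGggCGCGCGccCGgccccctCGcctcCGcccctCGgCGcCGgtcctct
Hs3st5: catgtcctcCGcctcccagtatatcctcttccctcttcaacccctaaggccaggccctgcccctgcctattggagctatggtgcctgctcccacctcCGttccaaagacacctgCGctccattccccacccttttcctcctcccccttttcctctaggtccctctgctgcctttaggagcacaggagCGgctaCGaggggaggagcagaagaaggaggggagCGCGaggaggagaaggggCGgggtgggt
The motif searched was CG, which reads the same on both strands, with no overlap between matches. The Hs3st4 window held 43 of them, a number reached by 0.712% of 32851 promoter windows of this length, and the Hs3st5 window held 8, close to the median of 6 (as many or more in 43.0% of windows). The windows of Hs3st1 and Hs3st2 held 19 and 17. The count is a description of the sequence and was not related to expression here.

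The 3-O-sulfotransferases were divided among the clusters, and each of the 4 members led the family somewhere. Hs3st4 was the most counted isoform in clusters 1, 2, 3, 4, 8, 11 and 12, Hs3st5 in clusters 7, 9 and 10, Hs3st1 in clusters 5 and 6, and Hs3st2 in clusters 13 and 14. These shares are of UMIs, of which each transcript gives 1 at its 3′ end, and so need no scaling by length. In clusters 8 and 11 the lead was not clear. Cluster 8 gave 47.0% of its family UMIs (41.8% to 52.3%) to Hs3st4 and 44.3% (39.2% to 49.5%) to Hs3st5, and cluster 11 gave 42.0% and 37.7%, again with overlapping intervals, and in both clusters more cells had Hs3st5 as their most counted isoform (50.0% against 30.2% of cells, and 29.2% against 22.3%). The family of 7 genes summed to 186 CPM (95% interval 174 to 199) for cluster 1, to 198 CPM (193 to 204) for cluster 2, to 224 CPM (217 to 230) for cluster 3 and to 248 CPM (232 to 265) for cluster 4. Everywhere else the sum was lower, with cluster 13 next at 102 CPM, then cluster 10 at 82.0 CPM, and cluster 12 lowest at 19.5 CPM (15.8 to 23.8). Clusters thus differed both in how much 3-O-sulfotransferase RNA they held and in which isoform supplied it.

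**Figure D1:**
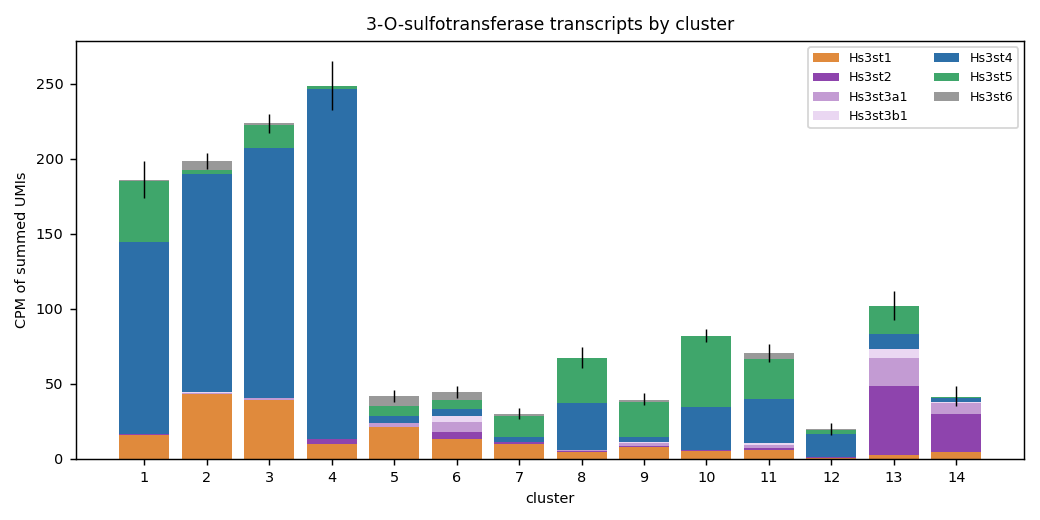
Stacked CPM of summed UMIs (vertical axis) of the 7 3-O-sulfotransferase genes in each of 14 clusters of 10X cells (horizontal axis), with black lines for the 95% Poisson interval of the sum. Clusters 1 to 4 stand at 186 to 248 CPM, mostly Hs3st4, and the remaining clusters at 19.5 to 102 CPM with Hs3st1, Hs3st2, Hs3st4 or Hs3st5 in the lead.

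Hs3st4 set clusters 1 to 4 apart. Cluster 1 held 128 CPM (118 to 139), cluster 2 held 146 CPM (141 to 151), cluster 3 held 166 CPM (161 to 172) and cluster 4 held 233 CPM (218 to 250), and at least 1 UMI was found in 94.1%, 97.5%, 98.7% and 100% of their cells. A middle tier followed, made of cluster 8 (31.7 CPM), cluster 11 (29.5 CPM) and cluster 10 (28.3 CPM), whose intervals overlap, and then cluster 12 (14.9 CPM) and cluster 13 (9.83 CPM). Clusters 6, 5, 7, 9 and 14 held 4.53, 4.31, 3.50, 3.31 and 2.75 CPM, again with overlapping intervals. The level in cluster 4 was 84.9-fold (45.9 to 178) that in cluster 14, and clusters 1 to 4 together, a grouping made after the values were seen, stood 11.0-fold (10.3 to 11.7) above all others. In the middle tier a UMI was found in 53.5% of cells of cluster 8, 48.1% of cluster 10 and 36.9% of cluster 11, against 7.79% in cluster 9 at a similar depth of 61866 UMIs per cell. Cells thinned to 20000 UMIs gave 40.5%, 34.5%, 30.0% and 4.03%. The top tier was found with both barcode endings (242 and 230 CPM for cluster 4), and cluster 10 was likewise even (31.5 and 27.0 CPM), whereas cluster 8 had 18.7 CPM with ending 1 and 40.3 CPM with ending 2 and cluster 11 had 46.2 and 25.2 CPM. Cluster 9 had 9.06 CPM (25 UMIs) with ending 1 and 0.909 CPM (6 UMIs) with ending 2, and cluster 13 had 4.14 and 15.2 CPM.

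Slc17a8, which encodes the vesicular glutamate transporter VGLUT3, ran from 6.39 to 27.2 CPM in the Hs3st4-rich clusters 1 to 4. It was at 34.9 and 43.3 CPM in clusters 5 and 6, and ran from 137 to 494 CPM in clusters 7 to 14. Gad2, which encodes a GABA-synthetic enzyme, had 524, 224, 123 and 71.4 CPM in clusters 4, 3, 2 and 1. Clusters 5 and 6 carried Gad2 at 134 and 172 CPM, and less Slc17a8 than clusters 7 to 14, with little Hs3st4. The Hs3st4 level thus neither followed Gad2 nor ran opposite to Slc17a8 over all clusters.

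Hs3st5 was highest in cluster 10 (47.2 CPM, 44.0 to 50.7), and cluster 1 (40.7 CPM, 35.1 to 46.9) overlapped it. Clusters 8, 11 and 9 followed with 29.8, 26.5 and 22.8 CPM, and clusters 13, 3 and 7 with 18.8, 15.5 and 13.6 CPM, each overlapping its neighbour in the order. Clusters 5 and 6 held 6.82 and 5.81 CPM, clusters 2, 12 and 4 held 2.63, 2.62 and 1.67 CPM, and cluster 14 held 0.824 CPM from 3 UMIs. Cells with a UMI made up 91.7% of cluster 10 and 83.3% of cluster 1, but 11.4% of cluster 2 and 1.96% of cluster 14. Among the Hs3st4-rich clusters, therefore, cluster 1 held both isoforms, cluster 3 held Hs3st4 with some Hs3st5, and clusters 2 and 4 held Hs3st4 nearly alone of this pair. Clusters 9 and 7 showed the reverse, Hs3st5 with little Hs3st4, and clusters 5, 6 and 14 had little of either.

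Hs3st1 was concentrated in clusters 2 and 3, at 43.0 CPM (40.4 to 45.6) and 38.7 CPM (36.1 to 41.5), and cluster 2 stood 2.97-fold (2.74 to 3.21) above all other cells. The level of cluster 2 was 33.0 CPM with ending 1 and 54.6 CPM with ending 2. Clusters 5, 1, 6, 4 and 7 held 20.9, 15.7, 12.9, 10.0 and 9.37 CPM, and clusters 9, 11, 10, 14, 8 and 13 held between 7.58 and 2.23 CPM, with overlapping intervals from each to the next. Cluster 12 was at 0.604 CPM, from 3 UMIs in 3 of 109 cells, and the fold from cluster 2 to cluster 12 was 71.2 (24.3 to 346). In cluster 5, where the family sum was 41.4 CPM, Hs3st1 supplied 50.4% of it (45.4% to 55.3%). It led in cluster 5, where the rest of the family was low, its level being near that of all other cells (log2 ratio 0.09, -0.13 to 0.29).

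Hs3st2 was counted mainly in clusters 13 and 14. Cluster 13 held 45.8 CPM (39.8 to 52.5) and cluster 14 held 25.3 CPM (20.4 to 31.0), with a UMI in 63.4% and 52.0% of cells, and the other clusters held 4.73 CPM or less. Cluster 13 stood 28.2-fold (23.2 to 34.3) above all other cells. In clusters 1, 2, 3 and 5 it was found in at most 1.96% of cells. Barcode endings 1 and 2 read 42.8 and 48.6 CPM in cluster 13. The Tph2-low cluster 13 (658 CPM of Tph2, the serotonin-synthesizing enzyme, against 1436 to 3739 CPM in the others) thus carried a 3-O-sulfotransferase found at low level in the Tph2-rich clusters. Of the isoforms outside the 8 genes, Hs3st3a1 also had its highest level in cluster 13, at 18.8 CPM.

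**Figure D2:**
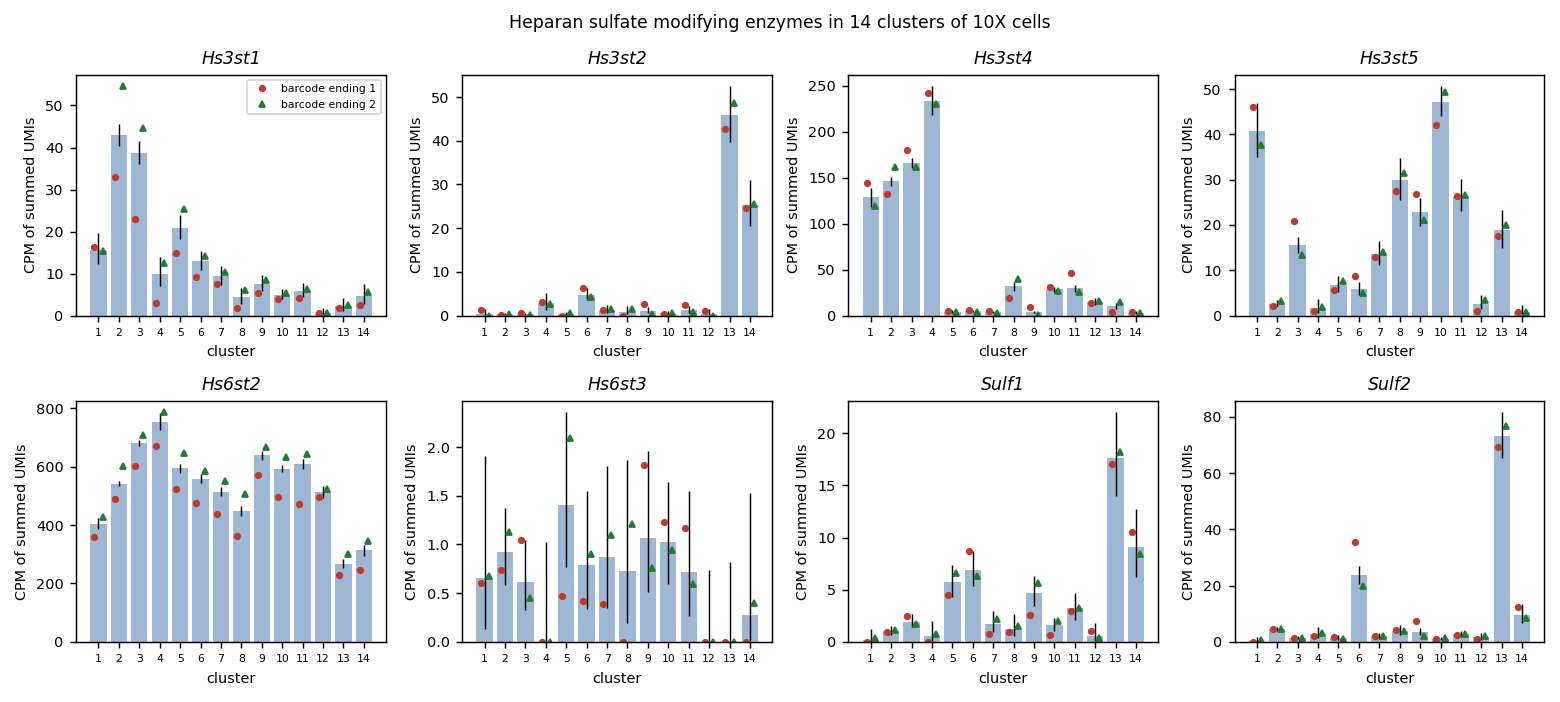
CPM of summed UMIs (vertical axes, each with its own scale) of the 8 enzymes in 14 clusters (horizontal axes). Bars are all cells of a cluster with 95% Poisson intervals, circles are cells of barcode ending 1 and triangles those of ending 2; Hs3st4 is high in clusters 1 to 4, Hs3st2 and the Sulf genes in cluster 13, and Hs6st2 in all clusters.

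Read against all genes, the 3-O-sulfotransferases varied widely. Of 9975 genes with a mean of at least 5 CPM over clusters, 13.0% differed by at least 4-fold between their highest and lowest cluster (floor of 3 UMIs). Of the 8 enzymes 6 passed the level filter and 5 of these differed by at least 4-fold, namely Hs3st1, Hs3st2, Hs3st4, Hs3st5 and Sulf2. Hs3st2 and Sulf2 passed only through cluster 13, where they held 45.8 and 73.3 CPM against means of 6.09 and 9.43 CPM over clusters. Their 4-fold span thus follows in part from the filter and adds little to the count. Hs6st2 passed the filter and spanned 2.83-fold, a span reached by 19.6% of the tested genes, whose median was 1.80-fold. Hs6st3 and Sulf1 were below the filter, with means of 0.647 and 4.01 CPM.

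Whether 1 isoform excludes another was then asked cell by cell. Of 2350 cells, 352 had no UMI of the 4 members, 770 had a UMI of 1, 939 of 2, 285 of 3 and 4 of all 4. At equal depth (2297 cells thinned to 20000 UMIs) the same counts were 727, 919, 590, 61 and 0. A cell counted here as having an isoform had at least 1 UMI of it, and no cell type without these genes was in the table to give the share from free RNA. In the clusters lowest in Hs3st4 (5, 6, 7, 9 and 14) 7.79% to 14.2% of cells had a UMI of it. Cluster 9 had 31 UMIs in 12 cells and cluster 14 had 10 UMIs in 9 cells. Shares near these may include background from free RNA or expression in a few cells, which was not tested. The pairs differed in how often they met. A UMI of Hs3st4 was found in 69.8% of cells with Hs3st1 and in 41.0% of cells without it, a difference of 28.9 percentage points (24.9 to 32.6). For Hs3st2 the sign was opposite: Hs3st4 was found in 24.1% of cells with Hs3st2 and in 57.4% of those without, a difference of -33.3 points (-38.7 to -27.2). Hs3st5 was found in 38.7% of cells with Hs3st4 and 42.8% of cells without it, a difference of -4.08 points (-8.05 to -0.10) that at equal depth was -2.76 points (-6.15 to 0.66) and no longer apart from 0.

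Weighted over clusters, the large differences of the first pairs were small within clusters. That of Hs3st4 and Hs3st5 was small on both levels, negative over all cells and positive within clusters. With cells compared inside their own cluster (differences weighted by the numbers of cells on both sides), the Hs3st1 and Hs3st4 difference went from 28.9 to 1.73 points, the Hs3st2 and Hs3st4 difference from -33.3 to 0.14 points, and the Hs3st4 and Hs3st5 difference from -4.08 to 5.67 points. In thinned cells the within-cluster values were 2.75, -2.62 and 3.62 points. Single clusters could differ from the weighted value: Hs3st1 was found more often in thinned cells with Hs3st4 than in those without in cluster 5 (37.0 points, 4.2 to 61.6) and cluster 6 (25.9 points, 2.7 to 52.8), the clusters that Hs3st1 led. Only 5.10% and 7.02% of thinned cells there had Hs3st4, shares that may include background as given above, so no association is read from them. With all UMIs cluster 6 gave 17.6 points (-2.5 to 36.9), cluster 5 29.6 points (7.1 to 42.4) and cluster 2 29.3 points (2.4 to 53.8). After thinning, the interval for this pair lay below 0 in 0 of 13 clusters. For Hs3st4 and Hs3st5, 13 clusters could be compared after thinning. The share with Hs3st5 was lower in Hs3st4-positive cells in 6 of them, the interval lay below 0 in 0 of them and above 0 in 1, cluster 11. In that cluster Hs3st5 was found in 53.8% of cells with Hs3st4 and 25.3% of cells without, a difference of 28.6 points (10.4 to 45.1). In other clusters with both isoforms in many cells the intervals were wide and held 0. The differences were 5.81 points (-17.8 to 30.0) in cluster 1, 0.72 points (-12.4 to 13.3) in cluster 10 and 6.00 points (-15.0 to 26.5) in cluster 8. With all UMIs the tally of intervals was the same, 0 below and 1 above 0 (cluster 11, 40.4 points, 25.1 to 52.2). For this pair no cell-by-cell exclusion within a cluster was detectable at this depth. Nor did their levels run against each other over all clusters: cluster 1 held both, clusters 8, 10 and 11 held both at lower levels, and clusters 5, 6 and 14 held little of either.

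**Figure D3:**
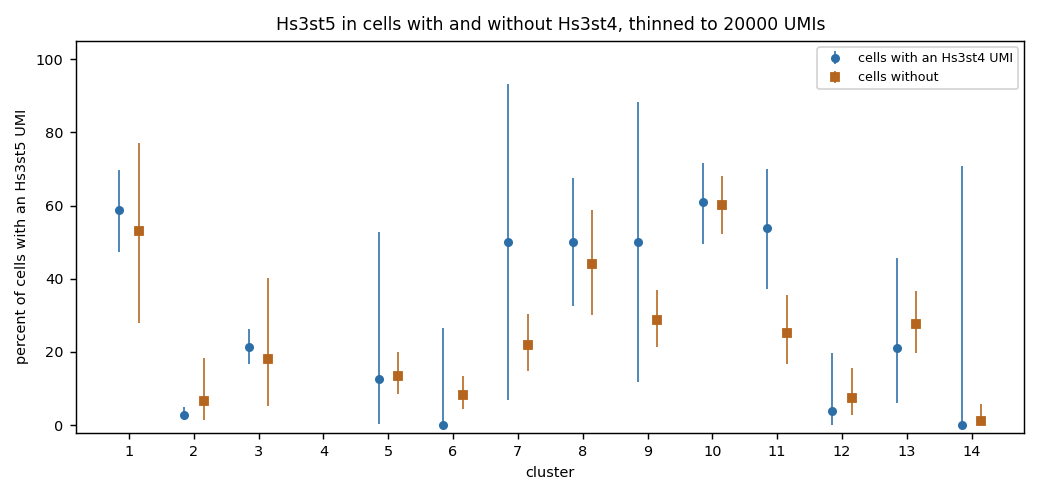
Percent of cells with an Hs3st5 UMI (vertical axis) among cells with an Hs3st4 UMI (circles) and without one (squares) in each cluster (horizontal axis), after thinning to 20000 UMIs, with 95% Clopper-Pearson intervals. The intervals of the pair overlap in most clusters, and in cluster 11 the circle (53.8%) stands above the square (25.3%); cluster 4 is absent because every thinned cell there had Hs3st4.

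The pairs of Hs3st5 with Hs3st1 and Hs3st2 depended on the depth of the cells. Hs3st5 and Hs3st1 differed by -4.20 points over all cells and by 6.88 points within clusters (-8.54 and 0.11 points in thinned cells), as the share of Hs3st5 in cells with less that in cells without Hs3st1. In cluster 3, with 314 thinned cells, Hs3st1 was found in 31.8% of cells with Hs3st5 and 50.8% of cells without it, a difference of -19.0 points (-30.7 to -5.5), but with all UMIs the shares were 84.4% and 81.5% (difference 2.89 points, -5.9 to 11.0). Of the 14 clusters this was the single one with an interval below 0 after thinning, and 2 had an interval above 0, cluster 2 (29.3 points, 2.7 to 43.9) and cluster 14, where 1 thinned cell had Hs3st5. Hs3st5 in cells with and without Hs3st2 differed by -11.1 points over all cells and 1.47 points within clusters (2.37 and 10.4 points in thinned cells). After thinning the interval lay above 0 in 3 of 12 clusters (4, 6 and 13) and below 0 in 0. Cluster 6 gave 21.0 points (2.8 to 50.5), and 12.1 points (-3.7 to 29.9) with all UMIs. In cluster 13, 33.8% of thinned Hs3st2-positive cells and 18.0% of the others had Hs3st5 (difference 15.8 points, 0.7 to 29.4), but with all UMIs the shares were 33.7% and 34.0% (difference -0.27 points, -16.4 to 14.9). Over the 14 clusters, Pearson's r of log2(CPM + 1) was 0.07 between Hs3st4 and Hs3st5, 0.41 between Hs3st1 and Hs3st4 and -0.40 between Hs3st2 and Hs3st4. These are descriptions over points that share 1 table.

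The 6-O branch was dominated by Hs6st2. It was the most abundant of the 8 enzymes, with 76549 UMIs and a UMI in 2337 of 2350 cells, and its order of levels differed from that of the 3-O enzymes. Clusters 4 and 3 were highest with 754 CPM (726 to 783) and 680 CPM (669 to 691), clusters 9, 11, 5, 10, 6, 2, 7, 12 and 8 ran from 639 down to 448 CPM, and cluster 1 (404 CPM, 386 to 423), cluster 14 (313 CPM, 295 to 332) and cluster 13 (267 CPM, 252 to 282) were lowest. Of the 13 cells without a UMI, 11 were in cluster 13 and 2 in cluster 14. Hs6st3, in contrast, had 106 UMIs in 101 cells and reached 1.40 CPM (0.77 to 2.36) in cluster 5. It had 0 UMIs in clusters 4, 12 and 13, where the floor of 3 UMIs stands at 0.834, 0.604 and 0.670 CPM and the Poisson interval reaches 1.03, 0.742 and 0.824 CPM. Hs6st3 did not take the place of Hs6st2 in any cluster.

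Hs6st2 also differed between barcode endings. It was lower in ending 1 than in ending 2 in 14 of 14 clusters, at 484 CPM against 609 CPM over all cells (log2 ratio -0.33), and Hs3st1 was lower in 13 of 14, at 16.0 CPM against 21.8 CPM (log2 ratio -0.44). Of all 9975 genes tested, 8.47% were lower in ending 1 in at least 13 of 14 clusters, and of the 6 enzymes tested these 2 were. Xist was found in ending 1 alone, as given above, and the part of sex in the difference was not tested.

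The extracellular endosulfatases were highest in cluster 13, where Hs6st2 was lowest, but cluster 1, with the next lowest Hs6st2 after clusters 13 and 14, had the fewest UMIs of either (1 of Sulf1 and 2 of Sulf2). Sulf2 reached 73.3 CPM (65.6 to 81.7) and 83.4% of cells in cluster 13, and then cluster 6 (23.6 CPM, 20.7 to 26.8), cluster 14 (9.62 CPM, 6.70 to 13.4) and the remaining clusters (at most 4.51 CPM) followed. Cluster 6 held 35.7 CPM of Sulf2 with ending 1 and 19.9 CPM with ending 2, and the part of its endothelial signal was not tested. Sulf1 reached 17.7 CPM (14.0 to 22.0) in cluster 13, and then cluster 14 (9.07 CPM, 6.24 to 12.7), clusters 6, 5 and 9 (6.89, 5.72 and 4.70 CPM) and the rest (at most 3.21 CPM) followed. Clusters 13 and 14 together, again a grouping made after the values were seen, held Sulf2 at 10.8-fold (9.40 to 12.3), Sulf1 at 5.53-fold (4.42 to 6.88) and Hs6st2 at 0.494-fold (0.474 to 0.515) of the level in clusters 1 to 12. Both barcode endings gave this order, with Sulf2 at 69.5 and 76.9 CPM and Hs6st2 at 230 and 302 CPM in cluster 13. Over the 14 clusters, Pearson's r of log2(CPM + 1) with Hs6st2 was -0.58 for Sulf2 and -0.47 for Sulf1, with Spearman's rho of -0.30 and -0.13, so that the ranks of the clusters followed each other less than the levels did. These 2 clusters were also the shallowest and, with cluster 12, the lowest in the Pet1 serotonin neuron list, at 2678 and 5522 CPM. The part of either in the result was not tested.

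**Figure D4:**
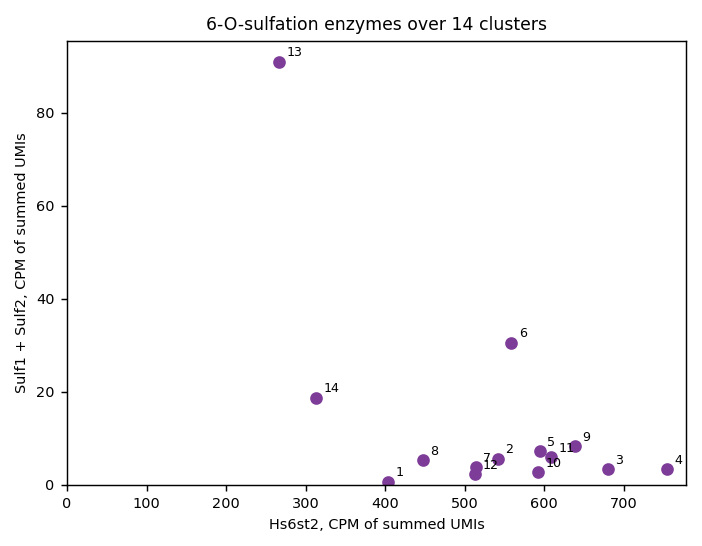
Summed CPM of Sulf1 and Sulf2 (vertical axis) against CPM of Hs6st2 (horizontal axis), 1 point for each of 14 clusters, labelled with its number. Clusters 13 (267 CPM of Hs6st2) and 14 (313 CPM) lie at the left, with cluster 13 at the top, and cluster 6 is raised among the rest.

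Sulf2 and Hs3st2 were both highest in cluster 13. Over the 14 clusters their r was 0.85, and Sulf2 was found in 56.7% of cells with Hs3st2 and 17.1% of cells without, a difference of 39.7 points (33.2 to 45.9). Inside clusters the weighted difference was 12.5 points, and 4.94 points in thinned cells. Most clusters had too few thinned Hs3st2-positive cells for a reading of their own. In cluster 6, with all UMIs, Sulf2 was found in 88.2% of cells with Hs3st2 and 52.1% of those without (difference 36.1 points, 19.2 to 46.9), which after thinning was 14.8 points (-10.5 to 42.2). In cluster 13 itself 77.0% of thinned Hs3st2-positive cells and 70.5% of the others had Sulf2 (difference 6.53 points, -8.1 to 21.3), which was not distinguishable from 0. For Sulf1 and Sulf2 in cluster 13, 61.1% of thinned cells with Sulf1 and 78.8% of those without it had Sulf2 (difference -17.7 points, -35.3 to -0.9), which with all UMIs was -5.82 points (-20.2 to 6.4), while in cluster 14 the shares were 38.9% and 15.2% (difference 23.7 points, 2.8 to 47.1, and 26.3 points with all UMIs).

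The remaining enzymes and carriers of the pathway give the setting. Of 53 genes listed, 51 were in the 10X table and 36 passed the level filter, 16 of them with at least a 4-fold difference between clusters. Without the 8 enzymes these were 11 of 30, beside 13.0% of all 9975 genes tested. Of the 7 linkage genes 5 were under 4-fold, such as B3gat3 at 182 to 246 CPM, while Xylt1, which begins the linkage, ranged between 1.41 CPM (cluster 12) and 17.2 CPM (cluster 13) and Pxylp1 spanned 4.84-fold. The 2-O-sulfotransferase Hs2st1 ran from 31.3 to 47.1 CPM and the epimerase Glce from 8.45 to 27.6 CPM, neither reaching 4-fold. Among N-deacetylase/N-sulfotransferases, which begin the sulfation of the chain, Ndst1 was even at 18.7 to 36.1 CPM, whereas Ndst3 ranged between 5.14 CPM (cluster 13) and 25.9 CPM (cluster 1), and Ndst4 had 0 UMIs in cluster 4 and 21.6 CPM in cluster 5. The polymerase subunit Ext1 ranged between 5.23 CPM (cluster 12) and 48.4 CPM (cluster 4) while its partner Ext2 stayed between 28.6 and 40.7 CPM. Hs6st1, the third 6-O-sulfotransferase, ranged between 10.7 CPM (cluster 1) and 46.1 CPM (cluster 4), its highest cluster being that of Hs6st2. Of the core proteins 5 of 10 tested reached 4-fold: Gpc3 ran up to 50.6 CPM, Gpc5 to 73.1 CPM and Sdc2 to 120 CPM, all in cluster 14, Gpc6 to 42.1 CPM in cluster 6 and Nrxn3 to 391 CPM in cluster 4.

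Genes outside the pathway with the most similar cluster profile were looked up among 6352 genes with a mean of at least 20 CPM. For Hs3st4 these were Sars (r = 0.92 over 14 clusters), Frmpd3 (0.92) and Rilpl1 (0.87), and over the 8 sorted groups their r with Hs3st4 was -0.16, 0.85 and 0.22. Frmpd3, which ran from 24.2 to 138 CPM between clusters, was thus the nearest of these in the sorted groups too. For Hs3st5 they were Trnt1 (0.84), G6pc3 (0.81) and Camkk2 (0.79), with 0.37, -0.63 and 0.42 over sorted groups. For Hs3st1 they were Rnf145 (0.90), Ric8 (0.89) and Tbc1d9 (0.89). For Hs3st2 they were Tspyl5 (0.93), Sst (0.93), which encodes the peptide somatostatin and reached 474 CPM, and Sez6l2 (0.92). The nearest profiles were Ttyh3, Me1 and Agtpbp1 (0.93 each) for Hs6st2, Stox2 (0.94), Sema6b (0.93) and Pde8b (0.92) for Sulf1, and Dfna5 (0.90) and Clock (0.89) for Sulf2. Hs6st3 was too sparse for its profile to be read, and its nearest genes were Pdcl3, Pts and Rc3h1 (0.92, 0.91 and 0.88).

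In the manually sorted cells, counted as full-length reads, Hs3st4 separated the groups most clearly among the sulfotransferases. It was read in 9 of 10 Sert_Pet1_dlDR cells, 7 of 9 Sert_Pet1_dmDR cells, 5 of 8 Sert_Pet1_vmDR cells and 5 of 8 Crh_Pet1_rDR cells. In the other groups it was read in 1 of 6 Sert_Pet1_cDR cells, 5 of 10 P2ry1_Pet1_cDR cells, 1 of 10 Npy2r_Pet1_cDR cells and 2 of 9 Npy2r_Pet1_rDR cells. The lowest, median and highest values were 0, 86.7 and 178 CPM in Sert_Pet1_dlDR, 0, 95.04 and 139 CPM in Sert_Pet1_dmDR, 0, 50.8 and 216 CPM in Sert_Pet1_vmDR and 0, 31.0 and 245 CPM in Crh_Pet1_rDR. The medians of the other 4 groups were at most 0.0870 CPM, with single cells of 8.22 CPM in Sert_Pet1_cDR, 29.9 CPM in P2ry1_Pet1_cDR, 50.5 CPM in Npy2r_Pet1_cDR and 55.8 CPM in Npy2r_Pet1_rDR. The groups overlapped because each held cells without a read, but the 3 caudal groups and the Npy2r rostral group were low as a whole. Age moved with the value in the Sert groups outside the caudal DR, the median being higher in the younger cells. It was 112 CPM at day 63 and 68.6 CPM at day 90 in Sert_Pet1_dlDR, 98.1 and 65.5 CPM in Sert_Pet1_dmDR, and 135 and 0 CPM in Sert_Pet1_vmDR. In Crh_Pet1_rDR the 2 cells of day 83 were at 0 and 245 CPM (median 122 CPM), against a median of 31.0 CPM at day 119. The order of ages in that group thus rests on 1 cell.

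Hs3st1 had a different distribution. It was read in 7 of 8 Crh_Pet1_rDR cells (median 46.6 CPM, highest 97.3 CPM), 8 of 10 Sert_Pet1_dlDR cells (28.2 and 155 CPM), 5 of 9 Npy2r_Pet1_rDR cells (34.5 and 84.6 CPM) and 5 of 9 Sert_Pet1_dmDR cells (18.9 and 117 CPM). It was read in 5 of 10 Npy2r_Pet1_cDR cells (0.839 and 78.1 CPM), 3 of 8 Sert_Pet1_vmDR cells, 1 of 6 Sert_Pet1_cDR cells and 0 of 10 P2ry1_Pet1_cDR cells. The P2ry1 group was thus without a read in any cell although its median depth, 5737030 reads, was the highest of the groups, while its median of 7947 genes detected per cell was the lowest (8809 to 9780 elsewhere). Age moved with Hs3st1: in each of the 6 groups with cells of 2 ages the median was higher in the older cells, for example 0 CPM at day 63 and 75.2 CPM at day 90 in Sert_Pet1_dmDR, 22.0 and 40.9 CPM in Sert_Pet1_dlDR, and 0 CPM at day 77 and 35.0 CPM at day 87 in Npy2r_Pet1_rDR. The part of age in the differences between groups was not tested. In the Npy2r rostral group Hs3st1 was the commonest isoform while Hs3st4 was nearly absent.

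Hs3st5 was read in 6 of 8 Sert_Pet1_vmDR cells, with a median of 9.37 CPM (3.47 CPM at day 63 and 41.7 CPM at day 90) and a highest value of 101 CPM, in 4 of 8 Crh_Pet1_rDR cells (median 7.09 CPM, highest 73.4 CPM) and in 3 of 6 Sert_Pet1_cDR cells (1.05 and 47.7 CPM). In the other 5 groups the median was 0 and 1 to 4 cells had reads. Hs3st2 was read in 5 of 70 cells, and 2 of them exceeded 5 CPM: cell 10 of Npy2r_Pet1_cDR at 112 CPM and cell 9 of Npy2r_Pet1_rDR at 47.5 CPM.

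Counted at 5 CPM or more, 19 of 70 cells held Hs3st1 and Hs3st4 together, 14 held Hs3st1 without Hs3st4, 11 Hs3st4 without Hs3st1 and 26 neither. Hs3st4 and Hs3st5 met in 11 cells, with 19 holding Hs3st4 without Hs3st5 and 11 the reverse. Both Hs3st2 cells lacked the 3 other members at this limit and both held Sulf2, at 84.8 and 31.2 CPM. These 2 cells were singled out after their values were seen. Tph2 was at 3073 and 10132 CPM in them. Of 6 markers per cluster, the first held 2 of cluster 13 and 4 each of clusters 7, 10 and 14 at this limit. The second held 3 of cluster 13 and 5 each of clusters 5 and 6. The combination of Hs3st1 with Hs3st4 and without Hs3st5 was found in 7 of 10 Sert_Pet1_dlDR cells, 3 of 9 Sert_Pet1_dmDR cells and 3 of 8 Crh_Pet1_rDR cells and in none of the other 5 groups. None of the 4 was held by 7 of 10 cells of P2ry1_Pet1_cDR, 3 of 6 of Sert_Pet1_cDR, 4 of 10 of Npy2r_Pet1_cDR and 1 of 9 each of Sert_Pet1_dmDR and Npy2r_Pet1_rDR. Summed over the family, the median was 140 CPM in Sert_Pet1_dlDR and 0.321 CPM in P2ry1_Pet1_cDR.

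**Figure D5:**
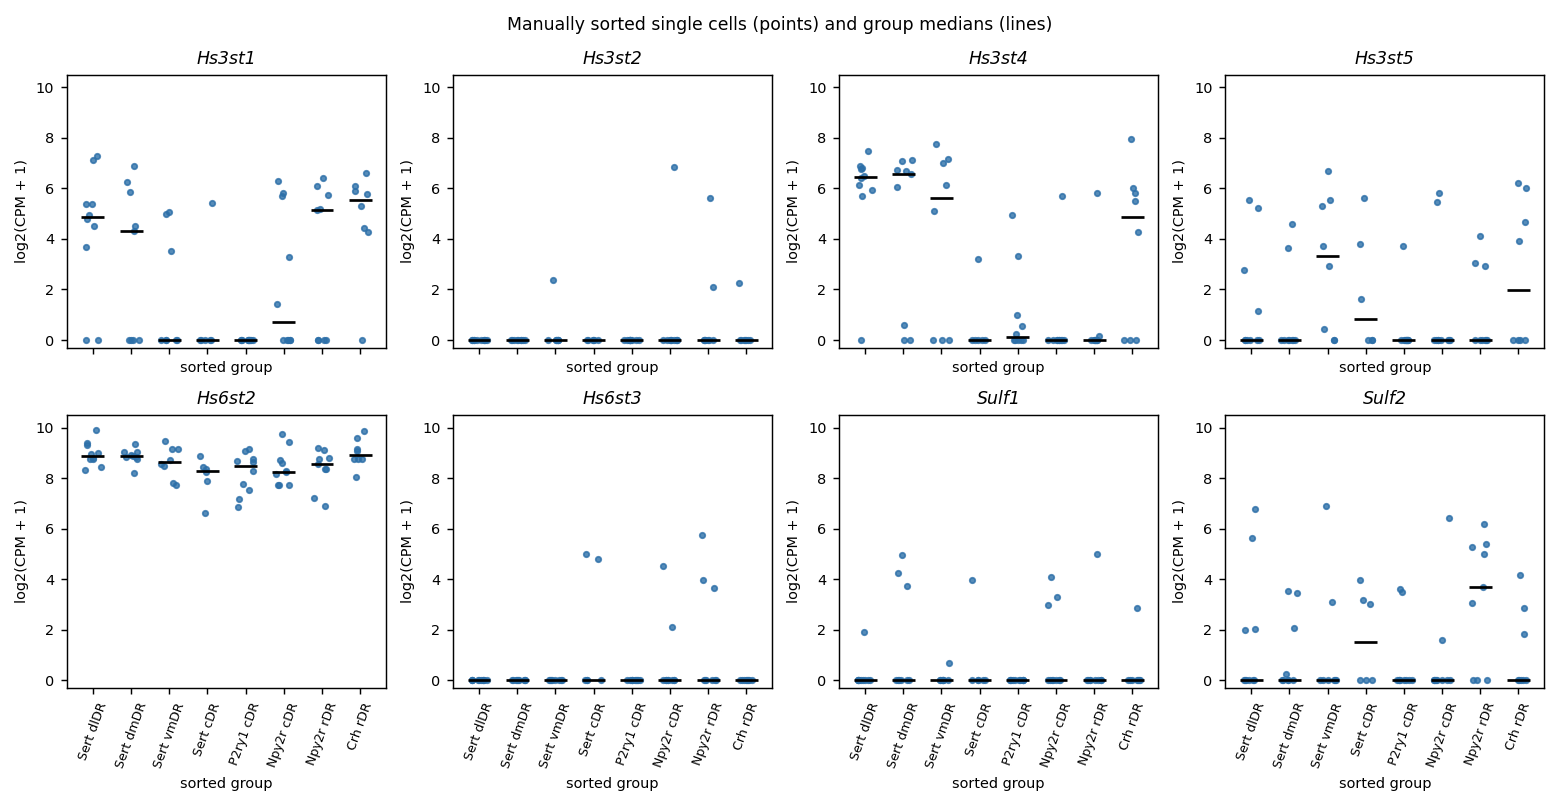
log2(CPM + 1) (vertical axes) of the 8 enzymes in 70 manually sorted cells (points) of 8 groups (horizontal axes), with a line at each group median. Hs6st2 lies above 6 in every cell, Hs3st4 medians are raised in the 3 Sert groups outside the caudal DR and in the Crh group, and Hs3st1 is at 0 in all 10 P2ry1 cells.

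Hs6st2 was read in 70 of 70 sorted cells. Its group medians ran from 305 CPM in Npy2r_Pet1_cDR (lowest 211 CPM, highest 868 CPM) to 489 CPM in Crh_Pet1_rDR (261 and 940 CPM), and all groups overlapped. Per kilobase of exon, where genes can be compared in these full-length libraries, the Crh median was 62.7 CPM per kb for Hs6st2, 20.9 CPM per kb for Hs3st1 and 9.71 CPM per kb for Hs3st4. In Sert_Pet1_dlDR they were 60.1, 12.7 and 27.2 CPM per kb, so that Hs6st2 was the most abundant in both groups. Hs3st4 was above Hs3st1 in Sert_Pet1_dlDR and below it in Crh_Pet1_rDR. The 2 Crh cells of day 83 differed in this order. Cell 6 had 245 CPM of Hs3st4 and 58.4 CPM of Hs3st1, and cell 7 had 0 and 18.3 CPM. The Crh cells of day 119 had medians of 31.0 CPM of Hs3st4 and 46.6 CPM of Hs3st1.

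Sulf2 was read in 6 of 9 Npy2r_Pet1_rDR cells, with a median of 11.9 CPM and a highest value of 70.9 CPM, and in 3 of 6 Sert_Pet1_cDR cells (3.62 and 14.5 CPM). The other group medians were 0, with single cells of 119 CPM in Sert_Pet1_vmDR and 108 CPM in Sert_Pet1_dlDR. Sulf1 was read in 11 cells and Hs6st3 in 7, at up to 30.7 and 53.1 CPM, with a median of 0 in every group. All 7 Hs6st3 cells belonged to Sert_Pet1_cDR (2 of 6), Npy2r_Pet1_cDR (2 of 10) and Npy2r_Pet1_rDR (3 of 9).

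Of 10229 genes with a mean of at least 5 CPM over the sorted cells, 51.8% differed by at least 4-fold between the highest and the lowest group median (CPM + 1). Of the 5 enzymes that passed this filter, 4 did so (Hs3st1, Hs3st4, Hs3st5 and Sulf2) and Hs6st2 did not, at 1.60-fold. With medians of 6 to 10 cells, large differences between group medians were common among all genes, and the count for these enzymes is not far from it. Hs3st4, at 96.0-fold, was equalled or exceeded by 1.03% of the genes tested and Hs3st5, at 10.4-fold, by 32.3%. Glial transcripts were also read: the oligodendrocyte list had group medians from 0 (P2ry1_Pet1_cDR) to 43.4 CPM (Sert_Pet1_cDR, up to 268 CPM in a cell) and the astrocyte list from 0 to 27.2 CPM (again Sert_Pet1_cDR, up to 202 CPM in a cell). These levels are above the Hs3st5 and Sulf2 medians of Sert_Pet1_cDR, and their part in the values was not tested.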

How the data were processed

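The authors mapped the 10X reads with Cell Ranger 3.0.2 and the reads of manually sorted cells with STAR 2.5.4 to mm10 (versions from the submitters' processing notes). They removed 10X cells rich in glial or mitochondrial transcripts, poor in Fev or ribosomal genes, or with outlying totals, and deposited raw UMI counts and raw read counts. Cells were clustered here with Seurat 5.3.0 (R 4.3.3) after log-normalization to a total of 10000, on 2000 vst variable genes less 18 heparan sulfate genes (7 of the 8 enzymes among them). Components 1 to 50 were used except 6 and 7, in which the barcode endings accounted for 48.8% and 19.4% of the variance, with 20 neighbours and Louvain clustering at resolution 0.9. Numbers were given by 6 markers per cluster, and each of the 14 clusters scored highest on its own.

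Summed UMIs were scaled to CPM with exact Poisson intervals. Shares have Clopper-Pearson intervals, their differences Newcombe intervals and ratios exact conditional intervals, at 95% and for counting error only. The floor was 3 UMIs per cluster. Thinning drew 20000 UMIs per cell and left out 53 shallower cells. Scrublet (scanpy 1.11.5, expected rate 5%) called 14 doublets, which were kept. The ratio was tested on simulated counts of 17231 genes for cluster 13, and 197 of 200 changed genes had the right direction. Python 3.11.15, numpy 2.4.6, pandas 2.3.3, scipy 1.17.1 and matplotlib 3.10.9 were used.

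Manual cells were scaled to CPM per cell, and log2 values carry a pseudocount of 1. Columns were matched to samples by title, those named Crf to the Crh samples. The 10X table, which names no run or animal, and each sorted group were taken as 1 sample, so no test was made. Genes were named by rule: the 8 enzymes, the pathway list, and per enzyme the 3 genes outside it with the nearest cluster profile at a mean of at least 20 CPM (1 of them is not reported here). The enzymes, lists and limits were chosen with earlier results of these data known. Alternatives covered clustering, depth, doublets, barcode endings, UMI minimum, pseudocount, size factors, left-out cells, age, fold limits and filters.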

Additional observations from a re-analysis of the deposited data

Results flagged for a closer look

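In the 70 sorted cells, single cells stood far from the rest of their group for 19 of 64 combinations of enzyme and group (in 11 of the 64 all cells had the same value). The measure was the gap to the nearest cell divided by the range, against a limit that chance passes in about 1 in 20 groups. That rate holds for evenly spread values, and most of these groups were at 0 in all cells but a few, so a flag often marks the sole cell with reads.

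For Hs3st2, cell 10 of Npy2r_Pet1_cDR was highest at 112 CPM and cell 9 of Npy2r_Pet1_rDR at 47.5 CPM, with lower single cells in Sert_Pet1_vmDR (4.15 CPM) and Crh_Pet1_rDR (3.75 CPM). The first of these cells also stood apart for Sulf2, at 84.8 CPM, as did cell 6 of Sert_Pet1_vmDR, at 119 CPM.

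For Hs3st4, cell 10 of Sert_Pet1_dlDR was the only one of its group at 0 CPM, the nearest cell being at 51.1 CPM. High single cells were found in Sert_Pet1_cDR (8.22 CPM), Npy2r_Pet1_cDR (50.5 CPM) and Npy2r_Pet1_rDR (55.8 CPM). For Hs3st1, cell 1 of Sert_Pet1_cDR was the sole one with reads, at 41.2 CPM, and cell 8 of Crh_Pet1_rDR the sole one without, at 0 CPM against 18.3 CPM for the nearest.

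For Hs3st5 the cell was in P2ry1_Pet1_cDR (12.2 CPM), and for Hs6st3 in Npy2r_Pet1_cDR (22.3 CPM). For Sulf1 they were in Sert_Pet1_dlDR (2.77 CPM), Sert_Pet1_vmDR (0.613 CPM), Sert_Pet1_cDR (14.9 CPM), Npy2r_Pet1_rDR (30.7 CPM) and Crh_Pet1_rDR (6.30 CPM).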

How the results depend on the processing

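Across alternatives, 59 values of an enzyme in its highest cluster stayed within their interval, 10 moved and 3 changed sign. The log2 ratio of Hs3st1 in cluster 2 to all other cells, 1.57, became 1.77 with components 1 to 50, 1.32 at resolution 1.5, 1.71 after thinning and 1.82 and 1.70 with barcode endings 1 and 2 alone. Hs3st2 in cluster 13 went from 4.82 to 4.49 by the mean of CPM per cell, and Sulf2 there from 4.09 to 3.82 in ending 1. Hs6st2 in cluster 4 went from 0.43 to 0.33 at resolution 1.5, 0.49 after thinning and 0.49 by the mean. Hs3st5 in cluster 10 went from 1.88 to -0.32 with components 1 to 50, where the cluster given number 10 shared 1 of 241 cells with it and 171 of 241 had gone to number 8. Hs6st3 in cluster 5 went from 0.94 to -0.21 with components 1 to 50 and to -0.63 in ending 1, with few UMIs.

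Of the differences between cells with and without another isoform, 25 stayed, 10 moved and 1 changed sign. Hs3st5 in cells with Hs3st2 went from -11.1 to 2.37 points after thinning. Hs3st5 in cells with Hs3st4 went from -4.08 to -0.0914 points at 3 UMIs. Hs3st1 in cells with Hs3st4 went from 28.7 to 23.6 points after thinning. Hs3st2 in cells with Hs3st4 went from -12.5 to -8.29 after thinning, -6.52 and -2.96 at 2 and 3 UMIs and -15.2 in ending 1. Hs3st1 in cells with Hs3st5 went from -4.31 to -9.15 after thinning and -10.98 at 2 UMIs, and in cells with Hs3st2 from -25.0 to -17.4 and, at 3 UMIs, -16.6.

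In the sorted cells 27 values stayed and 8 moved. The difference of log2 medians to all other cells, with a pseudocount of 1, 0.1 and 10, was 5.55, 8.85 and 2.49 for Hs3st1 in Crh_Pet1_rDR, and 2.53 by means. It was 6.59, and 9.89 with 0.1, for Hs3st4 in Sert_Pet1_dmDR, and 2.14 by means. It was 3.32 and 6.50 for Hs3st5 in Sert_Pet1_vmDR, and 1.68 in its cells of 1 age, and 3.69, 6.91 and 1.13 for Sulf2 in Npy2r_Pet1_rDR. Medians near 0 make these sizes depend on the pseudocount. Hs3st2, Hs6st3 and Sulf1 had no median above 0 and gave no value. The counts of enzymes past a limit stayed within 1.5 times, also for the count over endings repeated after thinning, which was chosen after seeing the data. No paired analysis was possible because the numbers in the labels only count cells and the results come from no test. Where no cause is given, the cause was not tested.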
